A study of Arabidopsis thaliana with 8 samples.

Results

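The WRKY transcription factors of the Arabidopsis thaliana leaf were compared between plants that overexpress RAP2.9 and their wild type. The family was taken as 57 loci with a WRKY gene name, and array probes were assigned to them through the RefSeq transcript recorded for each probe. Of the 57 loci, 56 had a matched probe and 51 could be tested, among 25107 genes tested on the array.

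WRKY proteins are plant transcription factors named after a short conserved peptide in their zinc-binding DNA-binding domain. They bind W-box elements in promoters, including those of other WRKY genes, and many are induced by pathogens or by salicylic acid. In leaves they are best known as activators and repressors of defence and of senescence. Group I members typically carry a pair of WRKY domains, group II members carry a single one and fall into subgroups a to e, and group III members have a variant zinc finger.

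Total leaf RNA came from untreated plants aged 54 days, with 4 biological replicates per genotype, and each replicate was hybridised to its own 1-colour Agilent array. The wild type was Col-0. The other genotype, 35S::Rap2.9-GFP, carries RAP2.9, a transcription factor of the ethylene response factor family, fused to green fluorescent protein under the viral 35S promoter, which is active in most plant tissues. The labels speak of a transgenic line and do not say how many independent insertions were sampled, so an effect of RAP2.9 and an effect of the insertion cannot be told apart. All levels below are log2 processed signals from which the 75th percentile of that array was subtracted. Because a probe's brightness depends on its own sequence, levels were compared between arrays and never between genes.

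Between 72.5% and 84.4% of the probes were well above background on an array. Each of the 2 slides held 2 arrays of each genotype. Transgenic replicate 1 stood apart at the dim end: the 25th percentile of its processed signal was 79.1, against 15.6 to 22.6 on the other 7 arrays. RAP2.9 itself (AT4G06746) had 2 probes that moved in opposite directions. One probe lay at 1.38 to 1.86 in wild type and at 5.58 to 6.13 in the transgenic arrays, a log2 change of 4.14 ± 0.15 (SE, limma, adjusted p = 5.502e-06). The other probe lay at 1.37 to 1.76 in wild type and at -0.55 to 0.51 in the transgenic arrays, a log2 change of -1.77 ± 0.23 (limma, adjusted p = 0.00116). The 7 tested mesophyll photosynthesis markers had a summed level, in units of the array's 75th percentile, of 788.6 to 933.9 in wild type and 774.1 to 1032 in the transgenic arrays, so the labelled leaf tissue carried its defining transcripts in both genotypes. Of the 7 markers 1 passed (14.3%, against 34.5% of all genes), LHCB2.1, at a log2 change of 1.04.

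In the RAP2.9 overexpressor 10 WRKY genes were higher and 5 were lower than in wild type, and 36 did not pass the test (limma, adjusted p under 0.05 over all 25107 genes). The higher genes were WRKY6, WRKY12, WRKY17, WRKY23, WRKY30, WRKY38, WRKY50, WRKY57, WRKY71 and WRKY75, and the lower ones were WRKY2, WRKY7, WRKY18, WRKY32 and WRKY69. These 15 were 29.4% of the tested members, against 34.5% of all genes tested, so the share of WRKY genes that changed was close to the background of the array. By direction, 19.6% of the members were higher against 18.6% of all genes, and 9.8% were lower against 15.9%. The same 15 members were those whose transgenic arrays did not overlap the wild-type arrays, 29.4% against 36.7% of all genes, with 10 higher (19.8% of all genes) and 5 lower (16.9% of all genes). Spots marked as outliers were left out of this count. WRKY75 was thus separate on 3 wild-type arrays only, since its left-out spot, at -2.04, lay above every transgenic array. A change of at least 1 on the log2 scale was reached by 6 of the higher members and 1 of the lower, where 4.17% of all genes were higher and 2.3% lower by as much, 6.47% in either direction. The median log2 change was 0.08 over the members and 0.03 over all genes tested.

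**Figure D1:**
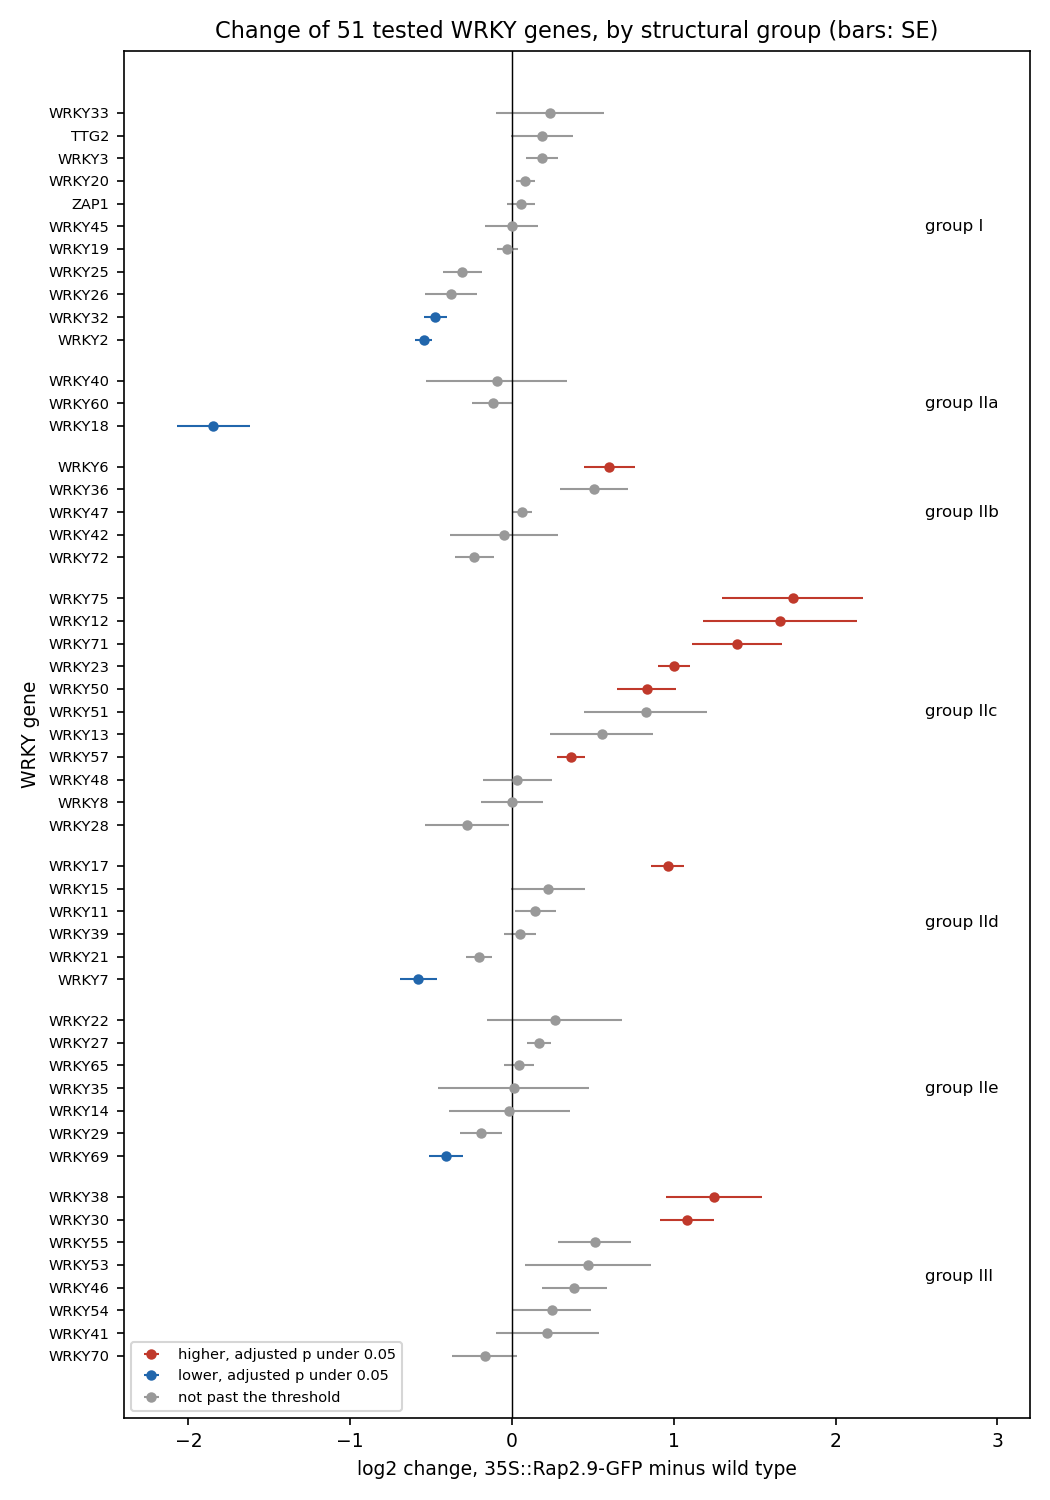
Log2 change of each tested WRKY gene in the RAP2.9 overexpressor relative to wild type, ordered by structural group. Points are limma estimates and bars are standard errors (SE). The 6 higher members of subgroup IIc lie to the right, and WRKY18 is the one member lower by more than 1.

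All 51 tested members were well above background on all 8 arrays in the probe used, so none entered the test through a single genotype, and none was saturated. Another 5 members stayed below the detection filter, which asked for 4 of the 8 arrays. WRKY9 was well above background on none of them. WRKY31 and WRKY34, the latter known from pollen, each passed on 1 transgenic array. WRKY10, an endosperm regulator, passed on 2 wild-type arrays and 1 transgenic array, and WRKY56 on 1 array of each genotype. WRKY31, WRKY34 and WRKY10 had their highest transgenic levels on replicate 1 (-5.65, -5.78 and -4.76), the array that stood apart at the dim end. WRKY56 had its highest on replicate 3. WRKY4 had no matched probe and was not analysed here.

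Subgroup IIc held 6 of the 10 higher members: of its 11 tested genes 6 were higher (54.5%, against 18.6% of all genes), none was lower and 5 did not pass, with a median log2 change of 0.83. This count depended on the background correction: 6 of 11 were higher with local subtraction, 3 with the normexp model on 6 arrays, 1 with normexp on all arrays with an offset of 0, and 0 with an offset of 50. Higher calls among all 25107 genes numbered 3719, 2800, 1238 and 1289 under these settings in turn, against 4675 as reported. Group III followed with 2 higher of 8 tested (25%, against 18.6% of all genes) and a median of 0.43. These counts are a description, and no test compared the subgroups.

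WRKY23 (AT2G47260), an auxin-responsive factor known from roots and embryos, had levels of -3.04, -3.29, -3.27 and -3.27 in wild-type replicates 1 to 4 and of -2.09, -2.20, -2.46 and -2.10 in transgenic replicates 1 to 4. Every transgenic array was above every wild-type array. The log2 change was 1.00 ± 0.10 (SE; limma, adjusted p = 0.000417), with 1.00 on each slide. WRKY71 (AT1G29860), which promotes shoot branching and flowering, stood at -6.19, -6.40, -5.64 and -5.56 in wild type and at -4.57, -4.28, -4.20 and -5.19 in the transgenic plants. Its log2 change was 1.39 ± 0.28 (limma, adjusted p = 0.00752), and its groups were separate on a dim probe whose mean processed signal was 31.3 and 102. The size of the change moved with the background correction and the constant added after it. It was 0.59 with local subtraction plus 50 (limma, adjusted p = 0.035). With normexp the gene did not pass. Its change was 0.22 with an offset of 50 (adjusted p = 0.952) and 0.62 with an offset of 0 (adjusted p = 0.847). On 6 arrays with an offset of 50 it was 0.45 (adjusted p = 0.187).

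WRKY50 (AT5G26170) acts with WRKY51 where salicylic acid represses jasmonate responses. It stood at -3.41, -2.96, -2.68 and -2.65 in wild type and at -2.01, -1.995, -2.37 and -1.99 in the transgenic plants, with no overlap. The log2 change was 0.83 ± 0.18 (limma, adjusted p = 0.0112), and a second probe gave 0.80. WRKY51 had an estimate of the same size, 0.83, with a 95% confidence interval of -0.06 to 1.71 (limma, adjusted p = 0.131): its wild-type arrays spread from -4.50 to -2.72 and overlapped the transgenic range of -3.04 to -2.47. The change of the WRKY50 to WRKY51 ratio between genotypes was 0.00652 (exact permutation test, two-sided, p = 0.971). WRKY57 (AT1G69310), tied to drought tolerance and to jasmonate-induced senescence, moved least among the 6. Its levels were -2.44, -2.21, -2.38 and -2.47 in wild type and -1.94, -1.90, -1.99 and -2.19 in the transgenic plants. The arrays were narrowly separate, with a log2 change of 0.37 ± 0.09 (limma, adjusted p = 0.0155).

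WRKY12 and WRKY75 were higher, and each call ended when certain single arrays were left out. WRKY12 (AT2G44745), a repressor of secondary wall formation in the stem pith, stood at -5.54, -4.97, -6.20 and -7.23 in wild type and at -4.44, -4.15, -4.87 and -3.84 in the transgenic plants. The groups were separate and the wild-type arrays wide apart, with a log2 change of 1.66 ± 0.48 (limma, adjusted p = 0.0316). Leaving out 1 array ended the call in 4 of 8 cases, with an adjusted p of up to 0.0783: wild-type replicate 3 and transgenic replicates 1, 2 and 4. It also ended with quantile normalization (limma, adjusted p = 0.084) and with the log2 values the authors deposited (0.0841). The same held with replicate number as a block (0.0675) and without the filter on dim probes. The call stayed with median scaling (0.0369) and local subtraction (0.0127). Markers of xylem and secondary walls moved in the same direction: 5 of 5 tested were higher, against 18.6% of all genes. Among them were the vessel protease gene XCP1 (log2 change 1.35) and the cellulose synthase genes IRX3 and IRX1 (1.24 each), with XCP2 at 0.90. XCP1 and XCP2 had overlapping arrays, and their calls were lost in 6 and 7 of 8 fits when arrays were left out in turn. With normexp and an offset of 50 none of the 5 passed, and with local subtraction 4 did, where 11.1% and 27.9% of all genes passed. Their summed level was 0.6294 to 1.563 in wild type and 1.567 to 2.449 in the transgenic arrays, and the part of this in the WRKY12 value was not tested. In a bulk leaf sample more cells of a type and more RNA per cell cannot be told apart.

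WRKY75 (AT5G13080) is induced by phosphate starvation and promotes leaf senescence. The spot of wild-type replicate 1 was marked as an outlier by the scanner software and was left out of the probe used, which leaves 3 wild-type values of -5.29, -4.17 and -4.66 for replicates 2 to 4. The transgenic levels were -2.65, -2.16, -3.33 and -3.73, all higher, with a log2 change of 1.73 ± 0.43 (limma, adjusted p = 0.0236). With the outlier spot kept, at a level of -2.04, the change was 1.07 (limma, adjusted p = 0.278). A second probe measured on all 8 arrays stood at -6.05, -5.34, -4.82 and -5.65 in wild type and at -3.25, -2.91, -3.79 and -4.34 in the transgenic plants. That probe had a log2 change of 1.89 ± 0.36 (limma, adjusted p = 0.00657), with no overlap on any array. The call on the first probe also ended without wild-type replicate 2 or 4 or without transgenic replicate 1. It was lost as well with the deposited log2 values (limma, adjusted p = 0.295) and with replicate number as a block (0.126).

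The 5 members of subgroup IIc that did not pass included WRKY13, which activates sclerenchyma formation in stems, at 0.55 (95% confidence interval -0.19 to 1.29). WRKY28, an activator of salicylic acid synthesis, had a log2 change of -0.28, WRKY48 one of 0.03 and WRKY8 one of -0.0013.

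**Figure D2:**
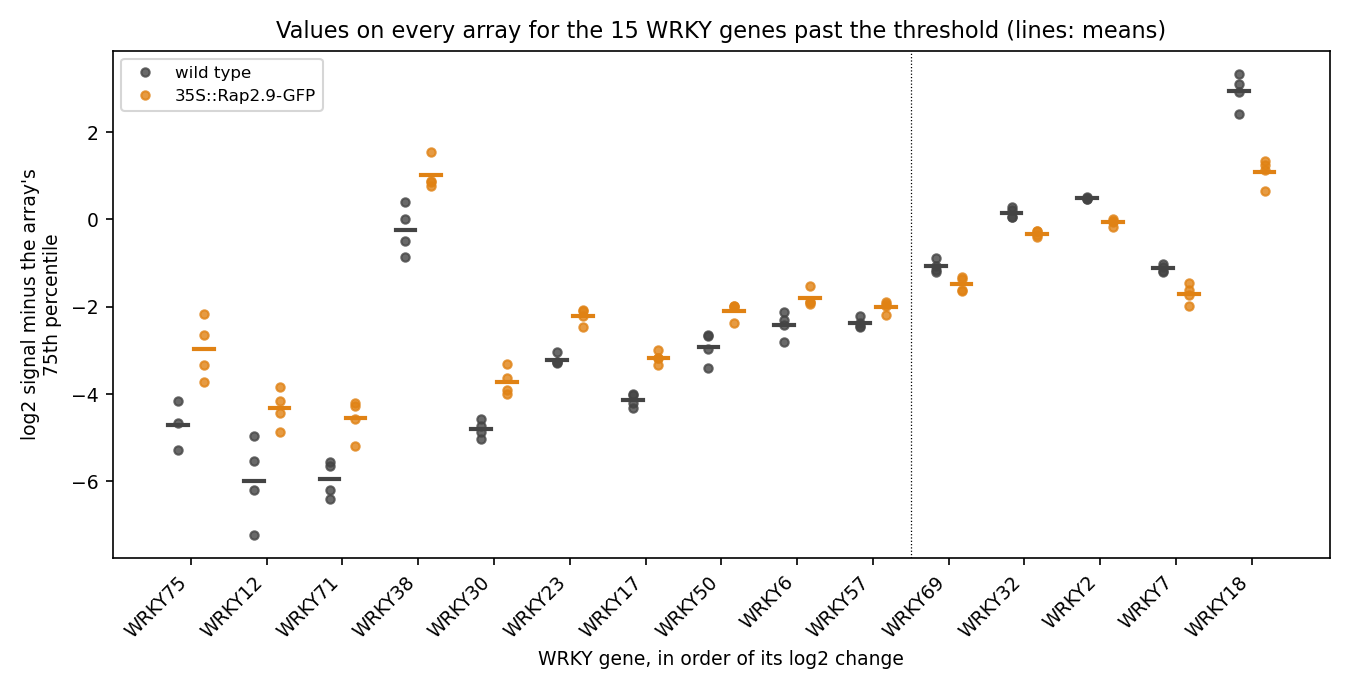
Level of each of the 15 called WRKY genes on every array, as log2 processed signal minus the array's 75th percentile, by genotype; each point is 1 array and the bar is the group mean. No gene has overlapping genotypes among the points shown. The missing wild-type point of WRKY75 is the spot left out, which lay above its transgenic points.

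WRKY18 was the WRKY gene with the largest fall. Together with its partners WRKY40 and WRKY60 it makes up subgroup IIa, and these proteins bind one another and adjust defence and abscisic acid responses. WRKY18 (AT4G31800) stood at 2.40, 2.92, 3.33 and 3.09 in wild type and at 1.14, 1.33, 0.66 and 1.24 in the transgenic plants. Every wild-type array lay well above every transgenic array. The log2 change was -1.85 ± 0.22, a level 3.6-fold lower (limma, adjusted p = 0.00094), and a second probe gave -1.65. The call held without any single array and on each slide, where the change was -1.59 and -2.11.

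WRKY40 and WRKY60 did not pass. WRKY40 had a log2 change of -0.09 with a 95% confidence interval of -1.11 to 0.93, since its arrays overlapped over a wide range, -0.14 to 1.09 in wild type and -0.53 to 1.27 in the transgenic plants. WRKY60 had a log2 change of -0.12 (95% confidence interval -0.42 to 0.18). Set against its partners on the same array, WRKY18 changed by -1.75 relative to WRKY40 and by -1.73 relative to WRKY60, with separate groups in each case (exact permutation tests, two-sided, p = 0.0286, the smallest that 4 against 4 arrays can give). These were among 9 pairs of close relatives, picked after their values had been seen, and the Benjamini-Hochberg adjusted p of both pairs was 0.0514.

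Group I had no higher member and 2 lower ones among 11 tested (18.2%, against 15.9% of all genes). WRKY2 (AT5G56270), needed for polarity of the zygote and for pollen development, stood at 0.47, 0.51, 0.46 and 0.49 in wild type and at -0.04, -0.18, 0.01 and -0.07 in the transgenic plants. Both groups were tight and well apart, with a log2 change of -0.55 ± 0.05 (limma, adjusted p = 0.000387). WRKY32 (AT4G30935) stood at 0.04, 0.20, 0.06 and 0.28 in wild type and at -0.26, -0.41, -0.27 and -0.37 in the transgenic plants, again separate, with a log2 change of -0.47 ± 0.07 (limma, adjusted p = 0.00246). WRKY33, the activator of camalexin synthesis in resistance to necrotrophic fungi, had a log2 change of 0.23 (95% confidence interval -0.54 to 1.01). WRKY25 and WRKY26, its relatives in heat responses, had log2 changes of -0.31 and -0.38 with adjusted p of 0.0917 and 0.106 (limma). With arrays scaled to their median instead, these passed (limma, adjusted p = 0.0411 and 0.0386). The other members of group I had changes from -0.03 (WRKY19) to 0.19 (TTG2, also called WRKY44, a regulator of trichomes and the seed coat), with ZAP1 (WRKY1) at 0.06, WRKY20 at 0.08 and WRKY3 at 0.18. WRKY45, placed in group I by the first classification of the family though close to WRKY75, had a log2 change of -0.0017 (95% confidence interval -0.38 to 0.38).

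In subgroup IId, whose members bind calmodulin, WRKY17 was higher and WRKY7 lower among 6 tested. Each was 16.7% of those tested, against 18.6% of all genes higher and 15.9% lower. WRKY17 (AT2G24570), which with WRKY11 dampens resistance to bacteria, stood at -4.21, -4.01, -4.31 and -3.99 in wild type and at -3.17, -3.18, -3.33 and -2.99 in the transgenic plants. The log2 change was 0.96 ± 0.10 (limma, adjusted p = 0.000503), a second probe gave 1.103, and no array overlapped. Its close relative WRKY11 had a log2 change of 0.14 (95% confidence interval -0.15 to 0.44). The WRKY17 to WRKY11 ratio changed by 0.817 with separate groups (exact permutation test, two-sided, p = 0.0286, Benjamini-Hochberg adjusted p = 0.0514 over the 9 pairs). WRKY7 (AT4G24240) stood at -1.21, -1.19, -1.01 and -1.09 in wild type and at -1.47, -1.62, -1.99 and -1.74 in the transgenic plants, all lower, with a log2 change of -0.58 ± 0.11 (limma, adjusted p = 0.00692). WRKY15 (0.22), WRKY39 (0.05) and WRKY21 (-0.20) did not pass. With arrays scaled to their median WRKY21 did (limma, adjusted p = 0.0488).

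Group III holds several regulators of salicylic acid signalling and of senescence. WRKY38 (AT5G22570), a negative regulator of basal defence, stood at -0.50, -0.85, 0.00 and 0.40 in wild type and at 0.76, 0.89, 0.87 and 1.54 in the transgenic plants. The groups were separate, with a log2 change of 1.25 ± 0.30 (limma, adjusted p = 0.0154), and a second probe gave 1.45. WRKY30 (AT5G24110), an early responder to pathogen signals, stood at -5.03, -4.57, -4.72 and -4.87 in wild type and at -3.31, -3.91, -3.64 and -4.01 in the transgenic plants. It was higher on every transgenic array, with a log2 change of 1.08 ± 0.17 (limma, adjusted p = 0.00278), and a second probe gave 1.45.

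WRKY70 and WRKY54, partners in salicylic acid signalling and leaf senescence, did not pass. WRKY70 was at 4.65 ± 0.31 (SD, n = 4) in wild type and 4.48 ± 0.31 in the transgenic plants, with a log2 change of -0.17 (95% confidence interval -0.63 to 0.30). WRKY53, a promoter of senescence, had a log2 change of 0.47 (95% confidence interval -0.44 to 1.38). WRKY54 (0.25) and WRKY55 (0.51), the only members that are direct neighbours in the gene table, did not pass either, nor did WRKY41 (0.22) or WRKY46 (0.39), a regulator of stomata under drought.

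In subgroup IIb, WRKY6 was higher (20% of 5 tested, against 18.6% of all genes) and the other 4 tested genes did not pass. WRKY6 (AT1G62300), a regulator of senescence and of phosphate transport, stood at -2.80, -2.42, -2.30 and -2.13 in wild type and at -1.53, -1.95, -1.89 and -1.88 in the transgenic plants. The groups were separate, with a log2 change of 0.60 ± 0.16 (limma, adjusted p = 0.0227). A second probe, at 0.40, did not pass (limma, adjusted p = 0.23), and the call ended without wild-type replicate 2 (adjusted p = 0.0511). The others had log2 changes of 0.51 (WRKY36), 0.06 (WRKY47), -0.05 (WRKY42) and -0.23 (WRKY72). In subgroup IIe, WRKY69 (AT3G58710) was lower among 7 tested (14.3%, against 15.9% of all genes). It stood at -1.16, -1.06, -0.88 and -1.20 in wild type and at -1.61, -1.36, -1.33 and -1.63 in the transgenic plants, separate by a small margin. Its log2 change was -0.41 ± 0.10 (limma, adjusted p = 0.0197), and the call ended without transgenic replicate 4 (adjusted p = 0.0514). WRKY22, which acts downstream of flagellin perception, had a log2 change of 0.26 (95% confidence interval -0.71 to 1.24). WRKY29, of the same pathway, had one of -0.19, and WRKY27 (0.17), WRKY65 (0.05), WRKY35 (0.01) and WRKY14 (-0.02) did not pass either.

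Several stress-responsive members spread widely within the transgenic group. WRKY40 stood at 1.01, 0.12, -0.53 and 1.27 in transgenic replicates 1 to 4, WRKY53 at 0.25, -0.95, -1.03 and 0.17, and WRKY22 at -1.65, -2.98, -3.55 and -1.98. In these genes, chosen after their values were seen, replicates 1 and 4 were above replicates 2 and 3. Transgenic replicates 2 and 4 shared the first slide and 1 and 3 the second. Within the slides the log2 change of WRKY40 was 0.40 and -0.58, that of WRKY53 was 0.81 and 0.13, and that of WRKY22 was 0.44 and 0.09.

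**Figure D3:**
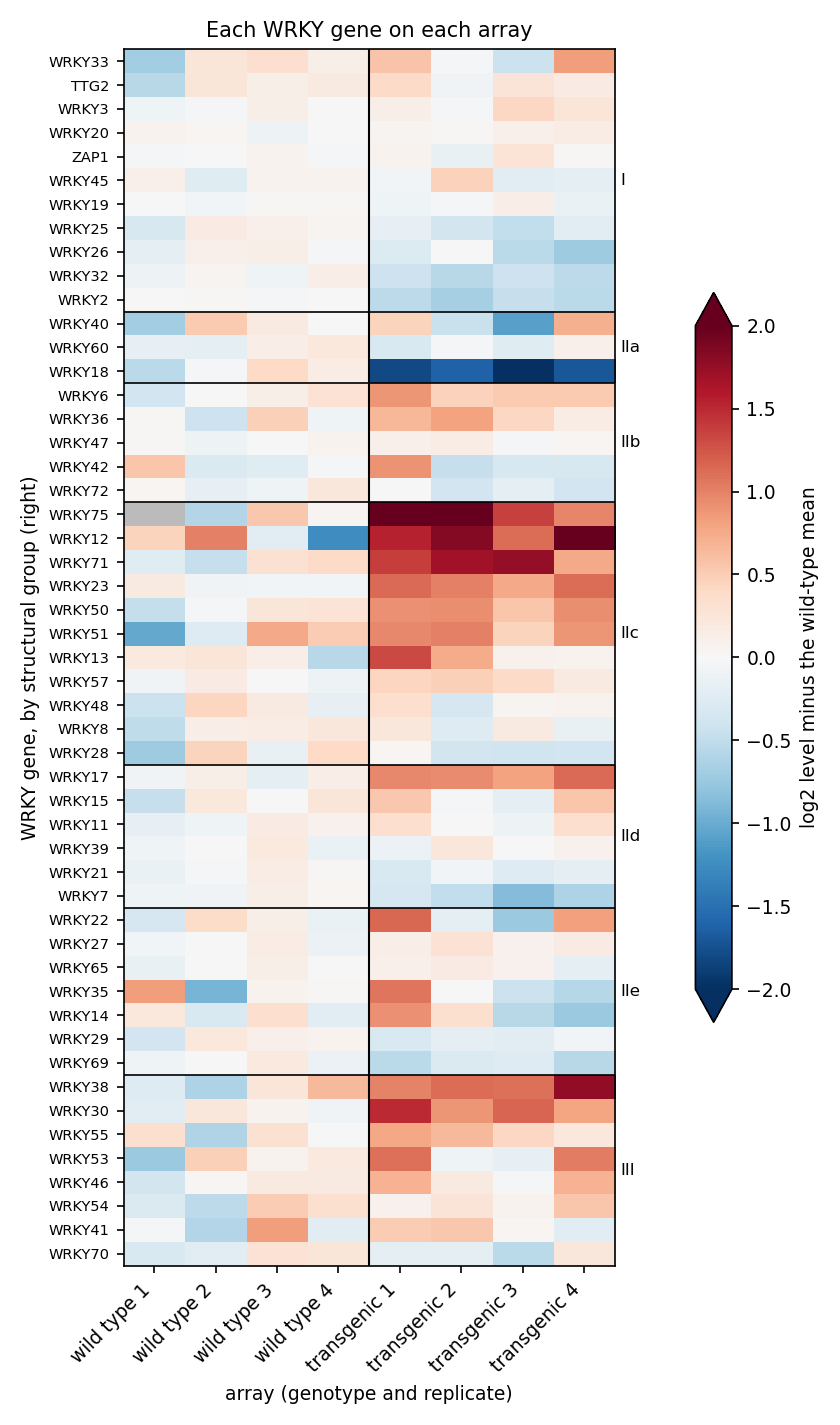
Log2 level of every tested WRKY gene on each of the 8 arrays minus that gene's mean over the wild-type arrays, by structural group. The called genes differ between the genotype blocks, while WRKY40, WRKY53 and WRKY22 differ mainly among the transgenic arrays.

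Senescence markers went in both directions. Of 8 tested, 4 were higher, 1 was lower and 3 did not pass, with a median log2 change of 0.78. The higher ones were 50%, against 18.6% of all genes, and 62.5% passed in either direction, against 34.5%. These shares and the median count SAG12 and SAG29, which entered the test only through the transgenic plants. No direction of the list is therefore read from them. The 8 markers had a summed level of 30.45 to 34.43 in wild type and 31.53 to 38.99 in the transgenic arrays. Such a sum is weighted to the brightest probes, here NYC1 (wild-type mean 3.97, log2 change -0.27) and PAO (3.19, -0.03). SAG13 (1.81) and the senescence regulator NAP (1.09) were among the higher ones. The other 2 counted as higher, SAG12 and SAG29, were well above background on 1 wild-type array and 4 transgenic arrays each, so they passed the detection filter only through the transgenic plants and no fold is given for them. The call of SAG12, a cysteine protease of late senescence, was lost in 5 of 8 fits when arrays were left out in turn, and its level was -0.70 in transgenic replicate 2 against -5.68 to -4.91 in the others. With normexp neither passed (limma, adjusted p = 0.661 for SAG12 and 0.298 for SAG29). Their part in the values of WRKY6, WRKY57 and WRKY75 was not tested. Of 4 root markers only 2 could be tested, and EXP7 and PHT1;1 stayed below the detection filter. The tested ones summed to 0.08009 to 0.1683 in wild type and 0.3468 to 1.113 in the transgenic arrays. Both were higher, against 18.6% of all genes: PYK10 by 3.10 and NRT2:1 by 0.59, the latter with overlapping arrays and its call lost in 5 of 8 such fits. Flower organ markers, 3 tested of 4, were at 0.07638 to 0.1814 and 0.1901 to 0.3151. Of the 3, 2 were higher (66.7%, against 18.6% of all genes), SEP3 by 1.60 and AG by 1.27. With normexp and an offset of 50 no root or flower marker passed, where 11.1% of all genes did. With local subtraction 2 of 2 and 2 of 3 passed, where 27.9% of all genes did. Trichome markers were at 0.3391 to 0.3958 and 0.3361 to 0.377, with none of 4 passing, against 34.5% of all genes. The log2 change was 0.17 for TRY, 0.16 for GL2, -0.18 for CPC and -0.11 for ETC1 (limma, lowest unadjusted p = 0.0539). The part of root and flower transcripts in the WRKY values was not tested either.

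Genes reported to act above or below WRKY factors were counted beside them. Among 16 tested upstream kinases and partner proteins 3 were higher and 1 was lower, 25% against 34.5% of all genes, with a median log2 change of 0.12. The share of higher ones, 18.8%, was that of all genes (18.6%). The higher ones were MPK11 (1.39), the chitin receptor kinase gene CERK1 (0.23) and MPK6 (0.16), and the lower one was the co-receptor gene BAK1 (-0.18). When arrays were left out in turn, the call of MPK6 was lost in 7 of 8 fits and that of BAK1 in 4. Among 17 tested genes reported as WRKY targets 6 were higher and 1 was lower, 41.2% against 34.5% of all genes, with a median of 0.37. The share of higher ones was 35.3%, against 18.6% of all genes. With normexp and an offset of 50, 3 of the 17 passed (17.6%, against 11.1% of all genes), all higher. One of the 6, the receptor kinase gene FRK1, had overlapping arrays and lost its call in 7 of 8 fits when arrays were left out in turn. The defensin gene PDF1.2 rose by 2.79 ± 0.37 (limma, adjusted p = 0.0014) and the pathogenesis-related gene PR1 by 1.82 ± 0.38 (limma, adjusted p = 0.0093). The camalexin gene PAD3 rose by 0.96 (adjusted p = 0.0266, lost in 5 of 8 such fits) and the jasmonate repressor gene JAZ8 fell by 1.00 (adjusted p = 0.0322, lost in 6, with overlapping arrays).

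The count of higher members depended on how background was removed. With the normexp model and an offset of 50, 1 member (WRKY38) was higher and 4 were lower, against 5.13% of all genes higher, 5.95% lower and 11.1% in either direction under that setting. All 15 called members kept their sign, and WRKY6, WRKY12, WRKY17, WRKY23, WRKY30, WRKY50, WRKY57, WRKY69, WRKY71 and WRKY75 lost their call. The normexp fit placed the background mean at -499.7 on wild-type replicate 1 and at -286.4 on transgenic replicate 3, and between -2.8 and 23.6 on the other 6 arrays. Without these 2 arrays the same correction gave 7 higher and 5 lower members, without WRKY57, WRKY71 and WRKY75. That was 23.5% of the tested members, against 20.8% of all genes. Subtracting the local background and adding 50 to every spot on all 8 arrays gave 10 higher and 5 lower, the same 15 genes. They were 29.4% of the tested members, against 27.9% of all genes under that setting. Changes were smaller for dim probes such as WRKY12 (0.68), WRKY71 (0.59) and WRKY30 (0.66).

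**Figure D4:**
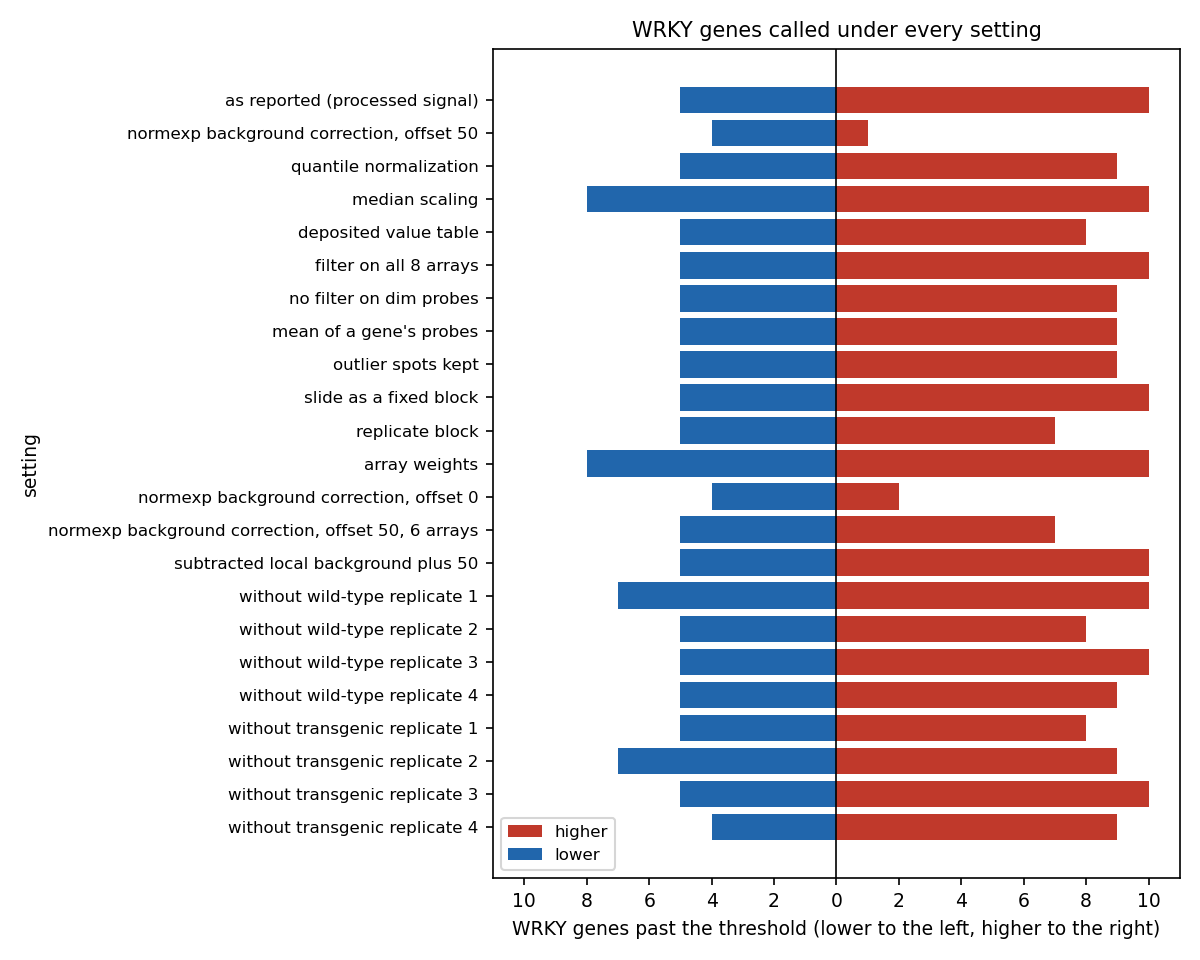
Number of WRKY genes called higher and lower in the RAP2.9 overexpressor under each processing setting. The main setting gives 10 higher and 5 lower, and normexp with an offset of 50 gives 1 and 4.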

How the data were processed

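The authors deposited the scanner output of 8 arrays, with spot intensity values made by Agilent Feature Extraction 11.5.1.1 per the file headers (array design 021169), and a table of log2 values. The deposited log2 values were centred per probe, which comparison with the scanner values showed. Their column medians ran from -0.0144 to 0.0116, and their direction followed the scanner values (correlation 0.657 to 0.961). Fitted in the same way they gave nearly the result of quantile normalization. They called 8887 genes, against 8913 with quantile normalization, 8276 with median scaling and 8673 as reported. The log2 change of WRKY71 was 1.03 in the first 2 of these, 1.30 with median scaling and 1.39 as reported. How the deposited values were normalized was not tested further.

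Processed intensities were log2-transformed and the 75th percentile of each array was subtracted. Control spots (1417 of 45220) and outlier spots (25 to 63 per array) were left out, and spots of one probe were averaged. Probes well above background on at least 4 of 8 arrays were tested, and the brightest probe stood for its gene. Probes were matched by unversioned RefSeq accession to loci of assembly TAIR10.1 (34348 of 43603 probes). Genotypes were compared with limma 3.58.1 (two-sided, Benjamini-Hochberg over 25107 genes, threshold 0.05) in R 4.3.3. Single ratios were compared with exact permutation tests.

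On simulated arrays 35 of 50 genes changed by 1 on the log2 scale were recovered, and 7 of 164 calls were false. The simulation changed 50 genes at each of the sizes 0.5, 1, 2 and 4 among 24959, far fewer than the 8673 called in the data. Its Benjamini-Hochberg cutoff was therefore stricter, and these rates do not carry over to the fit above. Normexp was run on median spot and background signals, since the mean signal planned for it is not among the columns used here. The number of arrays limits the precision. The members, gene lists and tests were chosen with earlier results of these data known. All members were named, and of each accompanying list up to 4 genes past the threshold with the largest change. Alternatives were other scalings, background corrections, filters, probe summaries, slide and replicate blocks, array weights and leaving out each array.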

Additional observations from a re-analysis of the deposited data

Results flagged for a closer look

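In 10 of 101 groups of 4 arrays, 1 array lay far from the other 3 by Dixon's ratio, where chance gives about 1 in 20. Among wild-type arrays, replicate 1 was low for TTG2 (WRKY44), at -4.95 against -4.28 to -4.16 on the others. It was also low for WRKY8 (-2.80 against -2.16 to -2.06) and high for WRKY23 (-3.04 against -3.29 to -3.27). Wild-type replicate 2 was low for WRKY45, a regulator of phosphate uptake (-1.36 against -1.05 to -1.01), and wild-type replicate 4 was low for WRKY13 (-5.27 against -4.59 to -4.47).

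Among transgenic arrays, replicate 1 was high for WRKY6 (-1.53 against -1.95 to -1.88), for WRKY42 (-4.55 against -5.9 to -5.77) and for WRKY28 (-2.49 against -2.93 to -2.90). Transgenic replicate 3 was low for WRKY50 (-2.37 against -2.01 to -1.99), and transgenic replicate 4 was high for WRKY38 (1.54 against 0.759 to 0.887). Without the array in question WRKY23, WRKY50, WRKY6 and WRKY38 still passed the test.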

How the results depend on the processing

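No member changed direction under any alternative among the 15 called. Against 10 higher and 5 lower members, normexp gave 1 higher with an offset of 50 and 2 higher with an offset of 0, with 4 lower in each. Scaling to the median gave 10 higher and 8 lower members, 35.3% of those tested, against 33% of all genes. Under it 5080 of all 25107 genes were lower, against 3998 as reported. The median log2 change of all genes was -0.06, against 0.03 as reported. Array weights also gave 10 higher and 8 lower members. The cause was not tested in either case. Leaving out 1 array gave 8 to 10 higher and 4 to 7 lower. Without transgenic replicate 1, WRKY12 and WRKY75 lost their calls (8 higher). Replicate numbers did not pair the samples (correlations of same-numbered arrays 0.155, -0.0921, -0.323 and 0.276), and with the replicate block 7 were higher and 5 lower. Over all genes, 53.9% of calls were higher, against 38.6% with median scaling; among the members it was 66.7% and 55.6%. Probes near background limit WRKY12 and WRKY71. Alternatives added after seeing the data were normexp with offset 0, normexp on 6 arrays and local subtraction.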
